A study of Mus musculus with 24 samples.

Results

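The respiratory chain and the ATP synthase were represented by 84 nuclear subunit genes, of 23152 genes measured. They were chosen by symbol alone, with no measured value used: the Nduf genes with a letter and number, the 4 Sdh genes, the Uqcr genes, Cox4 to Cox8, the Atp5 genes, Cyc1 and Cycs, leaving out pseudogenes. By complex these were 37 genes of complex I, 4 of complex II, 8 of complex III, 17 of complex IV, 17 of complex V and the gene of cytochrome c. The samples were total RNA of liver, taken from males aged 13 weeks with chow always at hand, mice of a strain that the labels spell C56bl/6J. All groups share this description and differ only in the hour of sampling, ZT0, ZT3, ZT6, ZT9, ZT12, ZT15, ZT18 or ZT21, with 3 arrays each and 24 in all. Zeitgeber time (ZT) counts hours from lights on, and the labels do not give the length of the light phase. Nor do they say whether the replicates 1 to 3 are separate animals, and p-values therefore measure only how far these arrays scatter, a scatter that may be technical.

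The respiratory chain passes electrons from NADH (complex I) or succinate (complex II) through coenzyme Q to complex III, then by cytochrome c to complex IV, which reduces oxygen. Complexes I, III and IV pump protons across the inner mitochondrial membrane, and complex V, the ATP synthase, uses their return to make ATP. Hepatocytes are rich in mitochondria and spend this ATP on glucose production, urea synthesis and protein export. Apart from complex II, each complex also holds subunits encoded in mitochondrial DNA. None of those 13 genes had a probe set of its own symbol, so the account covers nuclear genes only.

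Values are log2 expression, the mean over the probe sets of a gene (a median of 6 per subunit gene). In bulk RNA, fewer cells of a type and less RNA per cell cannot be told apart. As a gauge of background, 1084 olfactory receptor genes, which liver is not expected to express, had a 95th percentile of 6.17. Of all genes, 10305 lay above it. All 10 hepatocyte markers were above it, with a list mean between 16.28 and 16.57 on every array. Their levels had a median of 17.96 and reached 19.71, near the highest value of the scale, 19.93. The narrow span of this list mean may therefore understate changes. The array ZT0 replicate 1 stood apart. On it all 6 neutrophil markers and all 9 Kupffer cell markers had their highest value, with list means of 10.82 and 11.80 against at most 5.0 and 9.67 on the other 23 arrays. Its mean correlation with the other arrays was 0.968, against 0.980 to 0.985 for the rest. The lowest of the rest, 0.980, was ZT0 replicate 3. On ZT9 replicate 2, 6 of 7 T, NK and B cell markers had their highest value, with a list mean of 6.44 against at most 5.75 elsewhere. The list means of the endothelial (8.34 to 9.81), stellate (8.72 to 10.02), biliary (5.99 to 6.84), erythroid (2 genes, 7.07 to 8.25), muscle (4.67 to 5.15) and adipocyte (4.64 to 5.06) markers are given as their range over the 24 arrays. The part of these cells in the results below was not tested, and results are therefore also given without ZT0 replicate 1.

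Nearly all subunit genes were expressed above background. Of the 84 genes, 75 had a mean above 6.17, and 8 of the 9 below it were isoforms known from tissues other than liver. The subunits with an isoform made for heart and skeletal muscle were Cox6a, Cox7a and Cox8, and Cox6a2, Cox7a1 and Cox8b had means of 5.26, 5.87 and 3.97. Cox4i2, known from lung and induced in hypoxia, had a mean of 4.66. Cox6b2, Cox7b2 and Cox8c, known from testis, had means of 5.33, 4.73 and 3.65. Ndufa4l2, a hypoxia-inducible relative of Ndufa4, had 4.91. Their counterparts in liver, Cox4i1 (14.74), Cox6a1 (17.88), Cox6b1 (13.52), Cox7a2 (13.87), Cox7b (8.64), Cox8a (14.84) and Ndufa4 (16.98), were all above background. Each value is to be read against the background only, since different probe sets are not on a common scale. The ninth gene below background was Atp5j2, a subunit of the membrane part of the ATP synthase that is not specific to a tissue, at 5.65. At the other end, 6 of the 84 genes had a probe set at the highest value of the scale, 19.93, on at least 1 array, where further changes cannot be seen. These were Atp5a1 (4 of 15 probe sets) and Atp5b (3 of 12), which encode the alpha and beta subunits of the catalytic head, and Cox6a1 (1 of 4), Cox8a (1 of 4), Ndufa4 (1 of 6) and Sdha (1 of 19). 

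**Figure D1:**
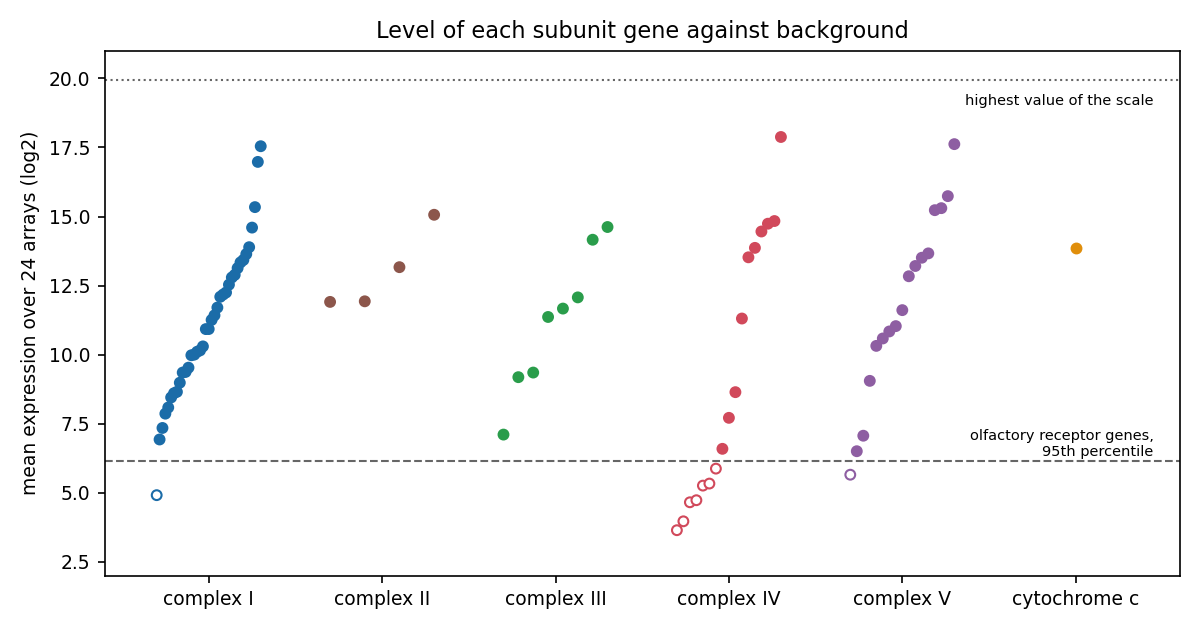
Mean log2 expression over the 24 arrays of each of the 84 subunit genes, 1 point per gene, sorted within each complex. Filled points are the 75 genes above the dashed background line at 6.17, open points the 9 genes below it, and the dotted line is the highest value of the scale, 19.93.

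The first question was which subunit genes follow the time of day. A 24-h cosine curve was fitted to each gene with limma over all 24 arrays, and p-values were adjusted by the Benjamini-Hochberg method over all 23152 genes. Of the 84 genes, 4 passed at 0.05 (4.76%): Ndufa9, Ndufa5 and Ndufa8 of complex I and Uqcrc1 of complex III. The background was 6.88% of all genes and 13.9% of genes above background, while the share among the 75 subunit genes above background was 5.33%. At an unadjusted p under 0.05 there were 19 of 84 (22.6%), against 19.2% of all genes. Among the 75, the same 19 made 25.3%, against 33.2% of all genes above background. The shares were therefore near or below those of the array as a whole. Without the probe sets at the highest value the same 4 genes passed. None of these 4 held such a probe set, so their own values could not change in that setting.

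The changes were small. Peak-to-trough ranges, 2 times the fitted amplitude, had a median of 0.28 on the log2 scale (1.22-fold) over the 84 genes, between 0.037 (Cox4i2) and 0.68 (Ndufa8, 1.60-fold). Their standard errors lay between 0.096 and 0.31 with a median of 0.14. Over all genes the median range was 0.25, and over all genes above background 0.33. Of the 84 genes, 78 had a range under 0.5. By contrast, all 16 clock genes of a check list were rhythmic, with a median range of 3.41.

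Ndufa9 encodes an accessory subunit of complex I at the joint between its matrix and membrane arms (chromosome 6, 126821863 to 126849144 in GRCm38.p6). On the arrays of replicates 1, 2 and 3 its values were 11.80, 11.97 and 12.01 at ZT0, 12.01, 11.80 and 12.04 at ZT3, 11.98, 12.04 and 12.12 at ZT6, and 12.36, 12.07 and 12.25 at ZT9. They were 12.46, 12.28 and 12.17 at ZT12, 12.39, 12.25 and 12.34 at ZT15, 12.67, 12.43 and 12.58 at ZT18, and 12.57, 12.64 and 12.74 at ZT21. All 6 arrays of ZT18 and ZT21 lay above all 12 arrays of ZT0 to ZT9. The fitted range was 0.57 ± 0.12 (SE, 24 arrays; 1.48-fold), with the peak at 16.8 ± 0.8 h (limma adjusted p = 0.00931). It also had a time effect, a difference of any shape among the 8 time points (limma adjusted p = 0.0110). Of its 12 probe sets, 11 had a fitted peak within 3 h of that of the gene. The value of a gene is the mean of its probe sets, so such counts, here and below, are no separate evidence. Of the 12, 11 had a mean above background, and the probe set below it had the largest range, 1.61.

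Ndufa5, an accessory subunit of the matrix arm (chromosome 6, 24518662 to 24527690), ran lower in the hours around ZT0. Its values were 8.69, 9.16 and 9.27 at ZT0, 9.39, 9.07 and 8.94 at ZT3, 8.62, 9.48 and 9.43 at ZT6, and 9.43, 9.37 and 9.40 at ZT9. They were 9.64, 9.30 and 9.86 at ZT12, 9.86, 9.67 and 9.62 at ZT15, 9.91, 9.57 and 9.25 at ZT18, and 9.31, 9.31 and 9.44 at ZT21. The 3 arrays of ZT15 lay above all 12 arrays of ZT0 to ZT9, and the 2 lowest values were both on replicate 1, at ZT6 and ZT0. The fitted range was 0.63 ± 0.14 (1.55-fold), with the peak at 14.5 ± 0.9 h (limma adjusted p = 0.0163). Of its 7 probe sets, 6 peaked within 3 h of the gene, and 5 had a mean above background.

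Ndufa8 encodes an accessory subunit with paired cysteine motifs on the intermembrane side of complex I (chromosome 2, 36036324 to 36049338). By the mean of the probe sets it had the largest fitted range among the subunit genes. Its values were 11.84, 11.83 and 11.54 at ZT0, 11.97, 11.96 and 11.56 at ZT3, 11.71, 11.75 and 12.05 at ZT6, and 12.12, 11.84 and 12.21 at ZT9. They were 12.24, 12.13 and 12.47 at ZT12, 12.39, 11.67 and 12.77 at ZT15, 12.66, 12.45 and 12.52 at ZT18, and 12.57, 12.22 and 11.80 at ZT21. The 3 arrays of ZT18 lay above all 12 arrays of ZT0 to ZT9, while ZT15 held both the highest value (replicate 3) and one near the lowest (replicate 2). The fitted range was 0.68 ± 0.16 (1.60-fold), with the peak at 15.7 ± 0.9 h (limma adjusted p = 0.0221). All 10 probe sets peaked within 6 h of the gene, 9 of them within 3 h. Its call was lost without ZT3 replicate 3 (adjusted p = 0.0511) or ZT15 replicate 3 (0.0534). Over all arrays left out in turn its adjusted p lay between 0.00113 and 0.0534.

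Uqcrc1 encodes a core protein of complex III on the matrix side, related to the peptidase that trims imported mitochondrial proteins (chromosome 9, 108936648 to 108949641). Its values were 13.58, 13.61 and 13.78 at ZT0, 14.14, 13.93 and 13.90 at ZT3, 13.97, 13.97 and 14.04 at ZT6, and 14.32, 14.01 and 14.26 at ZT9. They were 14.54, 14.43 and 14.61 at ZT12, 14.25, 14.10 and 14.22 at ZT15, 14.41, 14.45 and 14.36 at ZT18, and 14.35, 14.55 and 14.08 at ZT21. The 3 arrays of ZT0 lay below the other 21 arrays, and all 3 of ZT12 lay above all 12 of ZT0 to ZT9. The fitted range was 0.56 ± 0.13 (1.48-fold), with the peak at 14.3 ± 0.9 h (limma adjusted p = 0.0181), and the time effect also passed (limma adjusted p = 0.0127). Of its 15 probe sets, 14 peaked within 3 h of the gene.

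**Figure D2:**
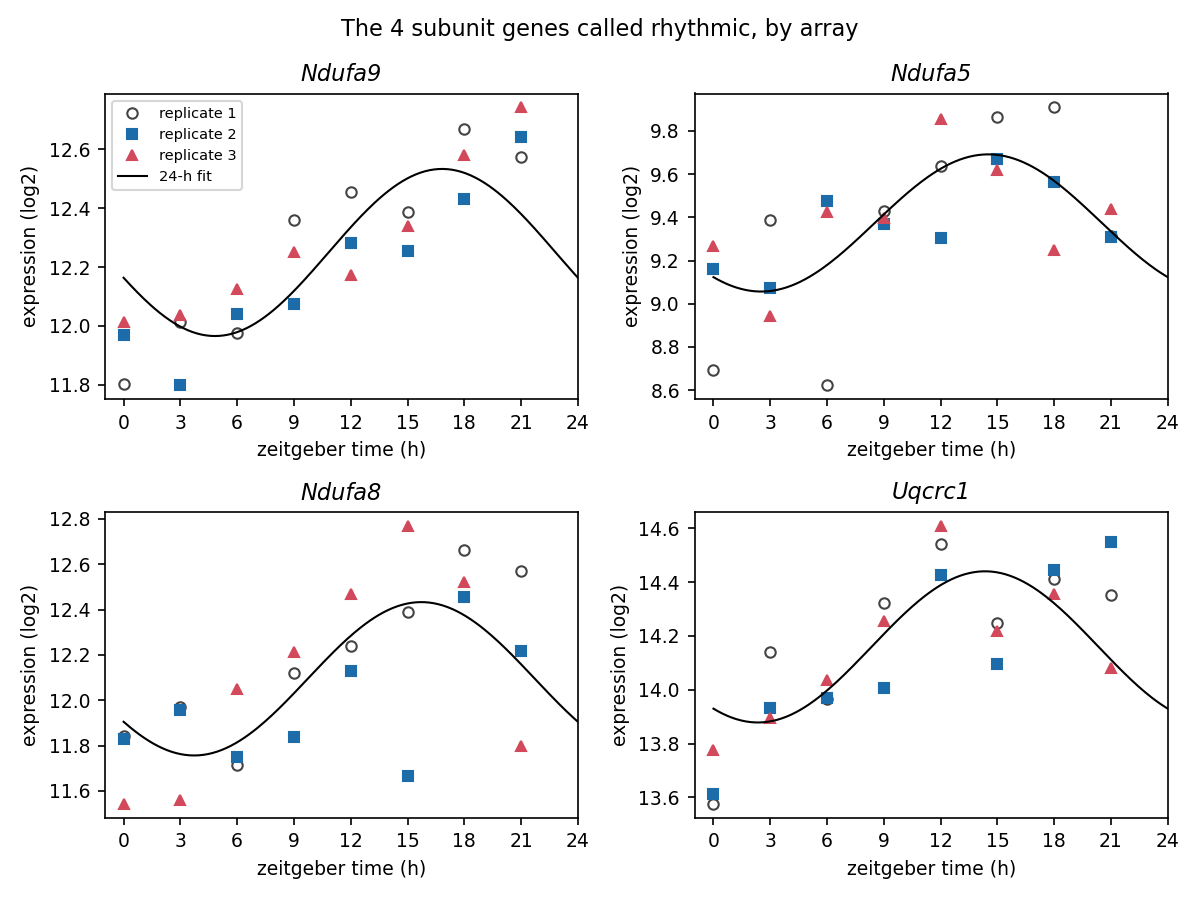
Log2 expression against zeitgeber time for Ndufa9, Ndufa5, Ndufa8 and Uqcrc1, 1 point per array with replicates 1 to 3 by symbol, and the fitted 24-h curve as a line. The y axes do not start at 0. The fitted peaks lie between 14.3 h (Uqcrc1) and 16.8 h (Ndufa9).

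These 4 calls stayed without ZT0 replicate 1, with adjusted p-values of 0.00782 (Ndufa9), 0.0277 (Ndufa5), 0.0302 (Ndufa8) and 0.0330 (Uqcrc1). Without all 3 ZT0 arrays only Ndufa9 passed (0.00758), and Ndufa5 (0.0523), Ndufa8 (0.0597) and Uqcrc1 (0.101) did not. Their ranges there were 0.58, 0.61 and 0.40, on fewer arrays. On the 16 arrays of replicates 2 and 3 none of the 4 passed (0.114 to 0.196), although Ndufa9 had a range of 0.54 and Uqcrc1 of 0.56 there. The subunit gene that passed on those 16 arrays was Atp5e (adjusted p = 0.0455), which encodes the epsilon subunit of the ATP synthase stalk and was named after its value was seen. With the brightest probe set of each gene or the median of its probe sets, Ndufa9 (0.346 and 0.0608) and Uqcrc1 (0.191 and 0.0990) did not pass. Their ranges there were 0.43 and 0.66 for Ndufa9 and 0.60 and 0.68 for Uqcrc1. Fitted on the 8 arrays of each replicate number alone, an alternative chosen after the data were seen, the range of Ndufa9 was 0.68, 0.57 and 0.51, and that of Uqcrc1 0.58, 0.56 and 0.63. Ndufa5 had ranges of 1.03, 0.38 and 0.54 and Ndufa8 of 0.80, 0.39 and 1.16, so both varied more between replicate numbers.

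The promoters of the 4 genes are shown because nuclear respiratory factor 1 (NRF1), a known activator of many respiratory subunit genes, binds a GC-rich palindrome near the start of its targets. Sequences are RefSeq promoter windows of build GRCm38.p6, 5′ to 3′ on the strand of the gene. Capitals mark matches to GCGCANGCG (NRF1) or AAGATGGCG (a motif of the factor YY1) on either strand. The 4 upstream pieces cover the 120 bases before the outermost start. They lie at chr6:24527691-24527810 (minus strand), chr2:36049339-36049458 (minus), chr6:126849145-126849264 (minus) and chr9:108936528-108936647 (plus). Both pieces after the start, at chr6:126849107-126849136 and chr9:108936658-108936687, cover the 30 bases that end with a match. The capitals that open the Uqcrc1 piece are the cut end of a further match, at 7 to 15 after the start.
Ndufa5 upstream: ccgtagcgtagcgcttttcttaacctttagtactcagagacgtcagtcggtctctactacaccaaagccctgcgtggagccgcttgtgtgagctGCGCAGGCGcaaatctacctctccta
Ndufa8 upstream: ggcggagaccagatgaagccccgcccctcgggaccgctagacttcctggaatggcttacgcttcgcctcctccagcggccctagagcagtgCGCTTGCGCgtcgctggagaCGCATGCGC
Ndufa9 upstream: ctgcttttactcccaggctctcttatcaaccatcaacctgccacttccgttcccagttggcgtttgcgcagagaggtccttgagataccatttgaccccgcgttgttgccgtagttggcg
Ndufa9 after the start: ggccgtgaggcattgtgggagAAGATGGCG
Uqcrc1 upstream: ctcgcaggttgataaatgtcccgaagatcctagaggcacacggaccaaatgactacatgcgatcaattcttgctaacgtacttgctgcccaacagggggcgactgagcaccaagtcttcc
Uqcrc1 after the start: TGCGCctcagactccgctctGCGCATGCGC

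Of the 4 genes, 3 held a match to the NRF1 letters. Counting the bases before the start backwards from -1, Ndufa8 had matches at -29 to -21 and -9 to -1 and Ndufa5 at -26 to -18. Uqcrc1 had 3 matches after the start, at 7 to 15, 31 to 39 and 32 to 40, of which the last 2 overlap as a palindrome does. Ndufa9 had no NRF1 match in the window of 300 bases and held the YY1 letters at 30 to 38. A promoter window was found for 69 of the 84 genes, and 21 of them (30.4%) held the NRF1 letters, against 6.25% of all 32851 windows. By complex these were 8 of 33 genes of complex I, 2 of 3 of complex II, 2 of 4 of complex III, 1 of 13 of complex IV and 7 of 15 of complex V, and Cycs. The letters CCGGAAG, bound by the GABP family, were in 17 of the 69 genes (24.6%; 8.86% of all windows), AAGATGGCG in 7 (10.1%; 1.4%) and TCAAGGTCA, bound by estrogen-related receptors, in 2 (2.90%; 0.423%). Of the letters of clock factors, CACGTG, the E-box, was in 6 (8.70%; 7.15% of all windows), TTANGTAA, the D-box, in 2 (2.90%; 2.32%) and TAGGTCA, which ROR and REV-ERB receptors bind, in 4 (5.80%; 2.61%). In these shares a subunit gene counts once if any of its windows matched, while the shares of all are per window. Of the 74 windows of subunit genes, 22 (29.7%) held the NRF1 letters and 7 (9.46%) the E-box. The windows of the subunit genes had a median GC content of 58.0%, against 52.7% for all. The median range was 0.29 for the 21 genes with NRF1 letters and 0.27 for the 48 without. A match is a description of letters, and no binding was measured.

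Complex I is the complex with the most genes. Of its 37 genes, 3 passed (8.11%, against 6.88% of all genes and 13.9% of those above background), and 11 had an unadjusted p under 0.05 (29.7%, against 19.2% and 33.2%). Their median range was 0.30. Besides the 3 called genes, Ndufb3, an accessory subunit of the membrane arm, had a range of 0.62 ± 0.26. It went from 10.83 ± 0.62 (SD, n = 3) at ZT0 to 12.16 ± 0.11 (n = 3) at ZT12, the largest difference between time-point means among the named genes, and did not pass (limma adjusted p = 0.315 for the rhythm and 0.134 for the time effect). The gene nearest to the threshold was Ndufs8, an iron-sulfur subunit that carries electrons towards coenzyme Q, named after its value was seen, with a range of 0.45 ± 0.12 (limma adjusted p = 0.0572). It passed in the quantile-normalized data (0.0315) and when only genes above background were tested (0.0257). With the brightest probe set (range 0.22, adjusted p = 0.773) or the median of the probe sets (range 0.52, adjusted p = 0.176) it did not. Ndufa4 had a range of 0.26 ± 0.13 (limma adjusted p = 0.467). It was placed with complex I by its symbol but is now known as a subunit of complex IV, and moving it changes no count of calls.

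In complex II, which is succinate dehydrogenase and also an enzyme of the tricarboxylic acid cycle, none of the 4 genes passed with limma, and none had an unadjusted p under 0.05. All 4 were above background, where the shares of all genes were 13.9% and 33.2%. The membrane anchors Sdhc and Sdhd had ranges of 0.32 ± 0.13 and 0.26 ± 0.16 (limma adjusted p = 0.311 and 0.635). Sdhb, the iron-sulfur subunit, had a range of 0.18 ± 0.12, and Sdha, the flavoprotein subunit, of 0.14 ± 0.13. The median of the 4 ranges was 0.22. The mean of Sdhc was 11.60 ± 0.33 at ZT0 and 12.08 ± 0.10 at ZT12 (3 arrays each), and Sdhb went from 11.74 ± 0.18 at ZT0 to 12.13 ± 0.22 at ZT21.

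In complex III, 1 of 8 genes passed (12.5%) and 3 had an unadjusted p under 0.05 (37.5%), with a median range of 0.33. All 8 were above background, and both shares were near the 13.9% and 33.2% of all genes above background. Cyc1, the cytochrome c1 subunit that hands electrons to cytochrome c, had a range close to that of Uqcrc1, 0.58 ± 0.18, and did not pass (limma adjusted p = 0.104). Its mean was 10.76 ± 0.39 at ZT0 and 11.73 ± 0.20 at ZT12 (3 arrays each), and the rhythm passed when ZT15 replicate 2 was left out (0.0324). Uqcr11, a small subunit, had a range of 0.38 ± 0.15 (limma adjusted p = 0.259). Cycs, the gene of cytochrome c itself, went from 13.57 ± 0.70 at ZT0 to 14.08 ± 0.19 at ZT12, with a range of 0.33 ± 0.15 (limma adjusted p = 0.362).

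In complex IV limma called none of 17 genes, against 6.88% of all genes and 13.9% of those above background. An unadjusted p under 0.05 was found for 2: Cox5a and Cox4i1, which surround the core made in mitochondria. These made 11.8% of the 17, against 19.2% of all genes. They made 20% of the 10 above background, against 33.2% of all such genes. Cox5a went from 14.24 ± 0.18 at ZT6 to 14.70 ± 0.28 at ZT12, with a range of 0.40 ± 0.12 (limma adjusted p = 0.101). Cox4i1 went from 14.29 ± 0.23 at ZT0 to 14.97 ± 0.18 at ZT18, with a range of 0.43 ± 0.14 (limma adjusted p = 0.137). Cox8a, the smallest subunit, went from 14.19 ± 0.13 at ZT0 to 15.11 ± 0.07 at ZT18, with a range of 0.40 ± 0.18 (limma adjusted p = 0.395 for the rhythm and 0.165 for the time effect). Cox6a1, Cox6b1, Cox7a2 and Cox7b had ranges of 0.29, 0.17, 0.23 and 0.21. The 7 isoforms of other tissues that belong to complex IV had ranges between 0.037 (Cox4i2) and 0.50 (Cox7a1). The range of Cox7a1 was the largest of the complex, on a level below background (limma adjusted p = 0.269). The median range of complex IV was 0.22, and 0.23 over its 10 genes above background.

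In complex V limma called none of 17 genes, against 6.88% of all genes and 13.9% of those above background. An unadjusted p under 0.05 was found for 3: Atp5mpl and, named after their values were seen, Atp5j and Atp5e. These made 17.6% of the 17, against 19.2% of all genes. They made 18.8% of the 16 above background, against 33.2% of all such genes. Atp5mpl, which encodes a small membrane subunit, went from 12.49 ± 0.31 at ZT0 to 13.15 ± 0.32 at ZT21, with a range of 0.41 ± 0.13 (limma adjusted p = 0.141). Atp5g1, 1 of 3 genes for the c subunit of the rotor ring, had a range of 0.49 ± 0.21 (limma adjusted p = 0.328). The 3 genes encode the same mature protein and are alike, so that probe sets may share signal. Atp5o, which joins the head to the peripheral stalk, went from 6.05 ± 0.20 at ZT0 to 6.80 ± 0.14 at ZT21, with a range of 0.45 ± 0.18 (limma adjusted p = 0.281). The catalytic genes Atp5a1 and Atp5b had ranges of 0.13 ± 0.11 and 0.15 ± 0.11 (limma adjusted p = 0.760 and 0.723), with part of their probe sets at the highest value. The median range of complex V was 0.23.

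The complexes thus had medians between 0.22 (II) and 0.33 (III), and the calls lay in complexes I and III. No difference between complexes was tested, because genes of a complex share the same arrays and are not replicates, and the median of complex III was 0.25 without ZT9 replicate 3 or ZT18 replicate 2.

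**Figure D3:**
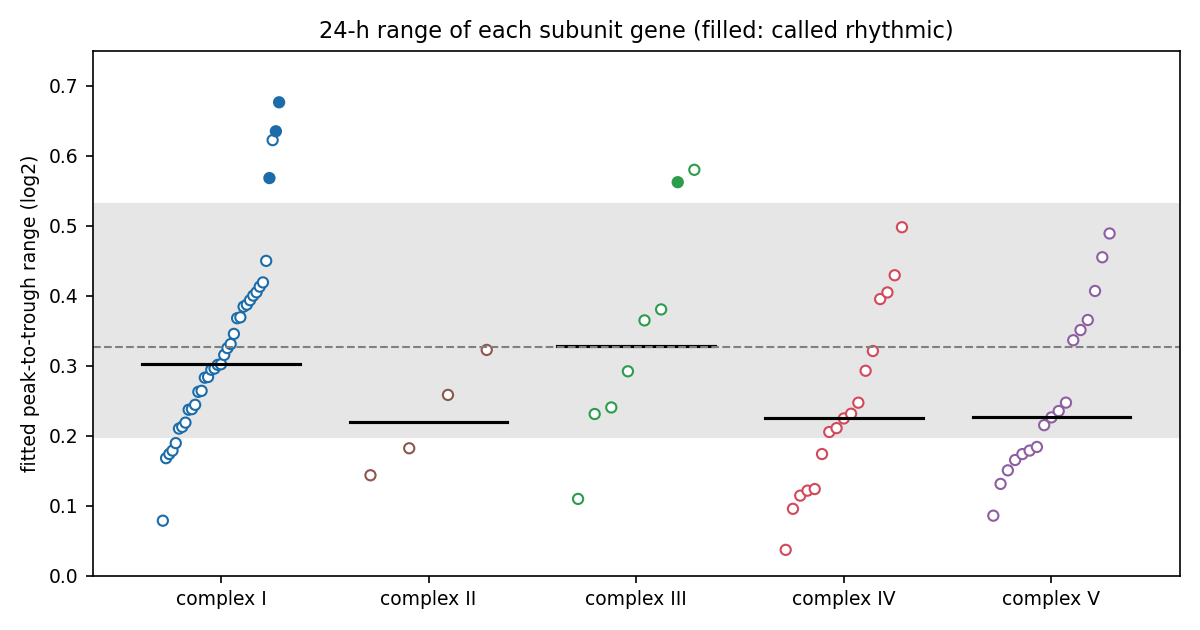
Fitted peak-to-trough range (log2) of each subunit gene in complexes I to V, 1 point per gene; filled points are the 4 called genes and black lines the medians of each complex (0.30, 0.22, 0.33, 0.22 and 0.23). The grey band and dashed line give the quartiles and the median (0.33) of all genes above background, inside or below which most points lie.

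The fitted peaks lay close together even where no rhythm was called. Of the 75 genes above background, 61 (81.3%) had their fitted peak from 12 to 18 h, against 26.3% of all genes above background. This held for 33 of 36 such genes of complex I, all 4 of complex II, 4 of 8 of complex III, 9 of 10 of complex IV and 10 of 16 of complex V. With the genes below background included it was 62 of 84. Genes on an array share its RNA and its normalization, so these are not 61 separate observations, and no test was made of the count. The count over the 84 was 40 without the 3 ZT0 arrays. In fits on a single replicate number it was 53, 29 and 61 of 84 for replicates 1, 2 and 3. No share of all genes is given for these settings. Where a fit is weak the hour is uncertain, as for Atp5d with a peak at 15.7 ± 3.3 h (SE).

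**Figure D4:**
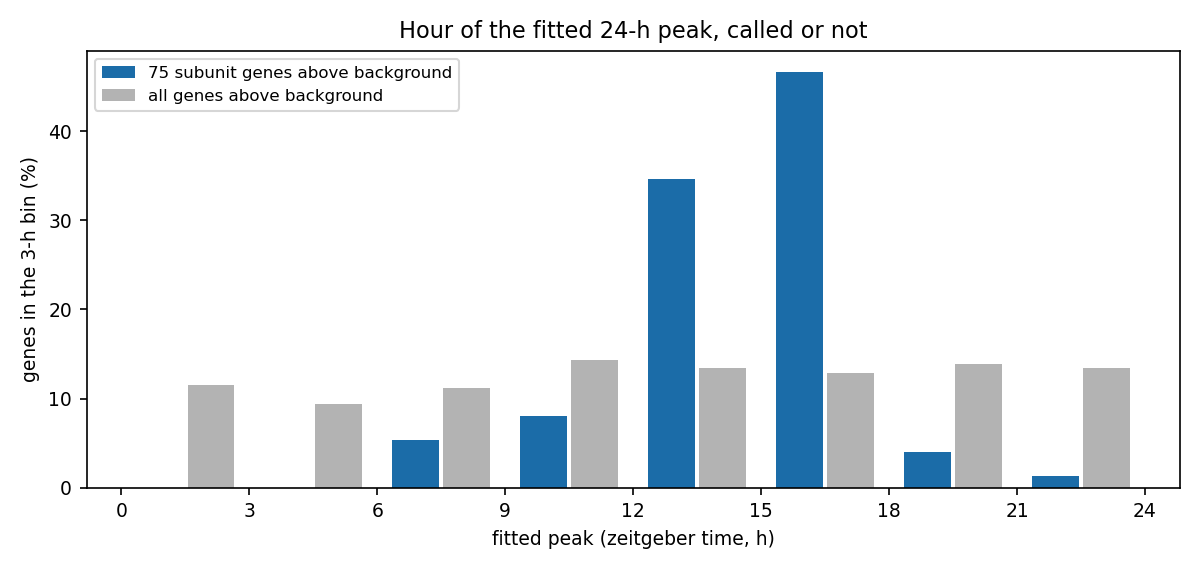
Share of genes (%) whose fitted 24-h peak falls in each 3-h bin of zeitgeber time, for the 75 subunit genes above background (blue) and all 10305 genes above background (grey), whether or not the rhythm was called. The bins from 12 to 15 h and from 15 to 18 h hold 34.7% and 46.7% of the subunit genes.

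The lowest time-point mean of 51 of the 75 genes was at ZT0 (68.0%, against 22.9% of all genes above background). It was at ZT6 for 14 (18.7%), a share near the 19.4% of all genes above background. The highest was at ZT18 for 26 (34.7%, against 14.3%), at ZT21 for 17 (22.7%, against 11.7%) and at ZT12 for 16 (21.3%, against 13.6%). Each gene was then set against its own mean over the 24 arrays and averaged over the 75 genes. This deviation was -0.48, -0.15 and -0.16 on ZT0 replicates 1, 2 and 3, and 0.13, 0.11 and 0.15 at ZT18. At ZT12 it was 0.11, 0.03 and 0.23, and at ZT15 0.11, -0.16 and 0.19, so that ZT15 replicate 2 lay apart from its own group. All 3 arrays of ZT0 lay below all of ZT12, ZT18 and ZT21, and those of ZT0 and ZT15 overlapped. All genes above background averaged 0.01, -0.08 and -0.04 on the ZT0 arrays and -0.09 on ZT15 replicate 2.

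ZT0 replicate 1, the array with the high neutrophil and Kupffer cell markers, was the array with the lowest value for 36 of the 75 genes. Without it, a setting chosen after the data were seen, ZT0 was the lowest time point of 29 genes and ZT6 of 25. No share of all genes above background is given beside these counts, so they say nothing about subunit genes in particular. The highest stellate list mean, 10.024 on ZT15 replicate 2, was close to the second highest, 10.018. Of the 8 stellate genes, 2 had their highest value on ZT15 replicate 2. This array also had the lowest hepatocyte list mean, 16.28. Without it, 8 of the 84 genes were rhythmic: the 4 above with Ndufs8, Ndufa10, Cyc1 and Atp5j, named after their values were seen, while the count over all genes was 1730 in place of 1592. The part of cell content in these values was not tested.

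By complex, the deviation at ZT0 was -0.28 ± 0.18 for complex I, -0.29 ± 0.28 for II, -0.25 ± 0.31 for III, -0.27 ± 0.11 for IV and -0.23 ± 0.17 for V (SD over 3 arrays; genes above background). At ZT18 it was 0.19 ± 0.02, 0.07 ± 0.06, 0.10 ± 0.04, 0.10 ± 0.04 and 0.06 ± 0.04 in the same order. The SDs at ZT0 are wide and overlap between complexes.

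**Figure D5:**
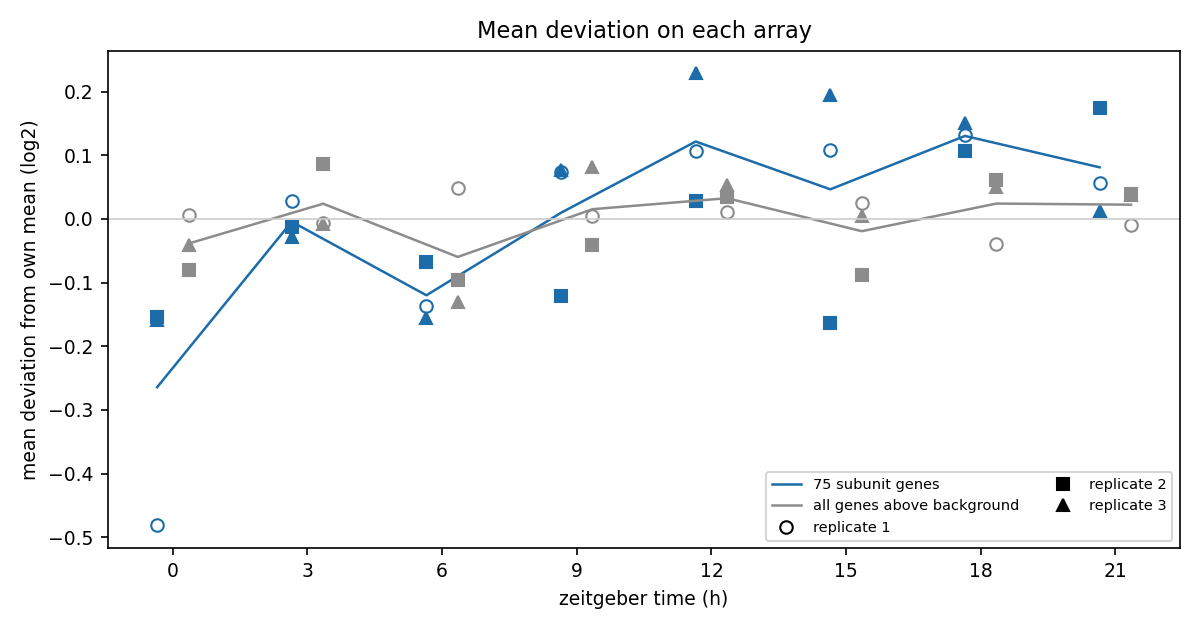
Deviation of expression (log2) from each gene's own mean over 24 arrays, averaged over the 75 subunit genes above background (blue) or all genes above background (grey), against zeitgeber time; each symbol is 1 array and lines join the means of 3 arrays. ZT0 replicate 1 at -0.48 is the lowest blue point, and the blue points of ZT0 and ZT6 lie below 0.

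Differences of any shape were rare as well. The time effect passed for 2 of 84 genes, Ndufa9 and Uqcrc1, against 1.98% of all genes. At an unadjusted p under 0.05 there were 21 of 84 (25%), against 14.4% of all genes and 24.2% of those above background. A 12-h component, tested by adding 12-h terms to the 24-h terms, passed for 0 of 84 genes and 0% of all genes with limma. At an unadjusted p under 0.05 it was found in 5 of 84 (5.95%), against 6.09% of all genes.

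The genes that assemble and supply the chain were counted in the same fit, on lists chosen with earlier results of these data known, and each count is to be read against the 6.88% of all genes and 13.9% of genes above background that were called. Of the assembly factors of complex I, 3 of 15 were rhythmic: Ndufaf4 (range 0.96 ± 0.18, peak at 12 h), Foxred1 (0.69 ± 0.13, 10.3 h) and Ndufaf5 (0.64 ± 0.16, 17.9 h), with limma adjusted p-values of 0.0036, 0.00445 and 0.0351. Of those of complexes II and III, 1 of 10 was rhythmic, Ttc19 (0.63 ± 0.13, peak at 8.5 h). Of those of complex IV, 2 of 24 were rhythmic: Coa6 (0.78 ± 0.18, 15.2 h) and Lrpprc (0.50 ± 0.11, 11.0 h), an RNA-binding protein that keeps mitochondrial messages stable. Of those of complex V, limma called 0 of 5, and Atpaf1 was the 1 gene with an unadjusted p under 0.05 (adjusted p = 0.192). The median ranges of these lists were 0.35, 0.37, 0.32 and 0.23.

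Among nuclear regulators of mitochondrial genes 4 of 11 were rhythmic, where the share over all genes above background was 13.9%. Ppargc1b, a coactivator of such genes, ranged 1.18 ± 0.25 with a peak at 5.8 h, Pprc1, a related coactivator, 0.92 ± 0.24 with a peak at 8.7 h, and Esrra, the estrogen-related receptor alpha, 0.61 ± 0.13 with a peak at 13.5 h (limma adjusted p = 0.00992, 0.0458 and 0.0120). Gabpb1, the fourth, peaked at 1.2 h (limma adjusted p = 0.0378), and Nrf1, the gene of NRF1, had a range of 0.17 ± 0.12 (limma adjusted p = 0.693). For transcription and replication of mitochondrial DNA 1 of 11 was rhythmic, the helicase gene Twnk (0.64 ± 0.13, peak at 14.9 h), against the same 13.9%.

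Of the genes of coenzyme Q synthesis 2 of 13 were rhythmic, a share near the 13.9% of all genes above background, and both had ranges far above those of any subunit gene. Coq8a, which encodes an atypical kinase needed for coenzyme Q synthesis, ranged 3.25 ± 0.35 (9.53-fold) with a peak at 21 h. Coq10b, which encodes a coenzyme Q binding protein, ranged 2.69 ± 0.26 (6.44-fold) with a peak at 8.9 h (limma adjusted p = 6.13e-06 and 2.38e-06). For the tricarboxylic acid cycle 2 of 12 were rhythmic, also near that share: Mdh2 (0.58 ± 0.13, peak at 15 h) and Fh1 (0.46 ± 0.11, peak at 7.2 h). Subunit genes of the complexes had a largest range of 0.68 by the mean of the probe sets, and none of these lists was tested against them.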

How the data were processed

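The deposited values are log2 expression per probe set of a whole-transcript Affymetrix array, hybridised with biotinylated DNA made from 300 ng of RNA per the labels' protocols. The authors normalized the arrays with a method not given in the sources used here. Affymetrix Power Tools 2.10.0, limma and mm10 are named in the submitters' processing notes without a role. Array medians were 6.44 to 6.51. The precision is limited by the number of arrays.

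Of 269479 probe sets, 233753 had 1 gene symbol and were used, 5106 had several and 30620 none. In all, 2189 symbols were updated from RefSeq (GRCm38.p6). The rule was applied to updated symbols. This added Atp5mpl, Atp5md and Ndufb1 and dropped Atp5s, Atp5sl and Cox4nb, which now carry other names. Cox6c and Uqcr10 were not analysed here. A gene's value is the mean of its probe sets, with no filter.

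Tests were moderated F tests in limma 3.58.1 (R 4.3.3) over 23152 genes, adjusted by Benjamini-Hochberg at 0.05, and tested on simulated data. Named subunit genes are those called, the 3 largest ranges above background and the smallest p of each complex, Cycs, isoforms with their counterparts, and those with most probe sets at the highest value. From each other list up to 3 called genes, or the one with the smallest p, were named. The genes and lists were chosen with earlier results of these data known. Alternatives were other normalizations, filters, probe-set summaries, variance priors, weights, a replicate block and arrays left out.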

Additional observations from a re-analysis of the deposited data

How the results depend on the processing

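The count of 4 rhythmic subunit genes was 7 when only genes above background were tested, 2 with the brightest probe set or the median of the probe sets, and 1 on replicates 2 and 3 or without the ZT0 arrays. With arrays left out in turn it ran from 3 to 8. For complex I (3 genes) these counts were 5 among genes above background, 0 on replicates 2 and 3 and 1 without the ZT0 arrays, and 2 to 5 with arrays left out. For complex III (1 gene) the count was 0 under the probe-set alternatives, on replicates 2 and 3 and without the ZT0 arrays, and 1 to 2 with arrays left out. Complex IV had 1 among genes above background and 0 to 1 with arrays left out, and complex V had 1 on replicates 2 and 3 and 0 to 1 with arrays left out. The time effect (2 genes) gave 0 with the brightest probe set and on replicates 2 and 3, 1 with the median or without the ZT0 arrays, and 2 to 3 with arrays left out. Over all genes, 1592 were rhythmic, 2021 of the 10305 above background when only those were tested, 1419 without the ZT0 arrays, 760 with the brightest probe set, 907 with the median, 765 on replicates 2 and 3 and 1316 to 1730 with arrays left out. The median range of complex III was 0.39 with the median probe set and 0.40 on replicates 2 and 3, and 0.25 to 0.36 with arrays left out, and that of complex I 0.28 to 0.39 with arrays left out. Of the 84 genes, 62 had a fitted peak from 12 to 18 h, 40 without the ZT0 arrays and, in an alternative chosen after the data were seen, 29 on the 8 arrays of replicate number 2. ZT0 was the lowest time point of 51 of 75 genes, and of 29 without ZT0 replicate 1, also chosen after the data were seen. The cause of these shifts was not tested. The peak and lowest-time counts in the reduced settings stand without shares over all genes. Same-numbered arrays did not deviate together (correlation over 0.1 in 5 of 84 pairs; 4 of 24 arrays were closest to their own number). With a replicate block 4 subunit genes and 1435 of all genes were rhythmic, and the 4 were the same genes. Over the genes followed singly, 1369 values under other settings stayed on their side of the threshold, 16 came to pass (8 of them of Ndufs8), and 13, all of the 4 called genes, no longer passed.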
